A study of Homo sapiens with 4 samples.

Results

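Amino acid transporters of the solute carrier (SLC) families SLC1, SLC3, SLC6, SLC7, SLC36, SLC38 and SLC43 were followed in a human lung cancer line and in its DDX21 knockout derivative, each with and without a miR-34a mimic. Protein-coding genes were taken whose symbol began with one of these family names followed by a member number, leaving out SLC7A11 and hyphenated symbols. The rule used names and no measured value, and found 59 of the 46427 genes in the gene table, of which 19672 were protein-coding. Of the 59 genes, 58 encode carriers or their heavy chains. The remaining gene, SLC7A6OS, shares its name with SLC7A6 because it lies on the opposite strand beside it, and is not a transporter.

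Total RNA was sequenced from NCI-H1299, a non-small cell lung carcinoma line, and from cells labelled DDX21 KO. Each was profiled non-treated and after transfection of a miR-34a mimic with a lipid reagent at 25 nM RNA and harvest at 48 h. The groups are called non-treated H1299, miR-34a H1299, non-treated DDX21 KO and miR-34a DDX21 KO, and values are given in that order throughout. The labels do not say that the non-treated cells received a control RNA or the lipid, so mimic and transfection cannot be told apart. The sources used here do not say how DDX21, a nucleolar RNA helicase, was knocked out, or whether the line is 1 clone. There was 1 library per group, so every difference lies between libraries and has no replicate check. In bulk RNA, fewer cells expressing a gene and less RNA per cell cannot be told apart.

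Cells take up amino acids through carriers that divide the work. Members of SLC38, with SLC1A4 and SLC1A5 of the SLC1 family, bring neutral amino acids such as glutamine, alanine and serine in with sodium. SLC7 light chains paired with the heavy chain SLC3A2 exchange them for leucine and other essential amino acids, and SLC7A1 and SLC7A2 carry arginine and lysine. On the lysosome, SLC38A9 and SLC36A1 take part in the control of the growth kinase mTORC1. When amino acids run short, the kinase GCN2 raises the transcription factor ATF4, which is known to act on the promoters of several transporter genes through C/EBP-ATF response elements. miR-34a is a microRNA that pairs through its seed with sites in messenger RNAs.

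The estimated counts summed to 36263145, 32991380, 26868358 and 32240536. DDX21 stood at 722, 588, 206 and 182 CPM (counts scaled to the size of each library), lower in both DDX21 KO libraries, with a log2 ratio of -1.81 (95% counting interval -1.85 to -1.77) between the non-treated libraries. The position of the lesion is not given, so reads from outside it say nothing about the protein. KRT8, KRT18 and VIM, markers of H1299, had 6479 counts or more in every library. The 19 markers of immune, endothelial, stromal, alveolar and ciliated cells summed to 57, 69, 43 and 84 counts, with 12, 12, 14 and 11 of them at 0, among them PTPRC, PECAM1 and SFTPC in every library.

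The seed of the mimic decides which messages it can pair with, so it is printed first. The labels do not say which arm of the hairpin the mimic carries. The guide arm miR-34a-5p, from RefSeq (GRCh38.p14, chr1:9151735-9151756, minus strand), is shown with its seed, bases 2 to 8, in capitals.
hsa-miR-34a-5p: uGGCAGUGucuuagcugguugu
Matches to this seed were searched as CACTGCC or ACTGCCA, on the transcript strand, in the longest 3' UTR of each protein-coding gene in GENCODE 29, and CACTGCCA, which holds both, was counted as 1 match. Matches were found in 12 of the 26 transporter-named genes with enough reads to be compared, with 14 matches in all. The sites of 5 genes described further on are shown with the match in capitals, 5' to 3' on the transcript.
SLC1A4, chr2:65021205-65021234, plus strand: gccagtcatggacacagggCACTGCCcttg
SLC7A1, chr13:29511159-29511188, minus strand: agccaccaaggccctgacgCACTGCCtcct
SLC43A2, chr17:1571882-1571911, minus strand: tctgggtctgctgccgaaaCACTGCCccca
SLC7A6, chr16:68300663-68300692, plus strand: tatattgtttcttggcccCACTGCCAaagg
SLC38A1, chr12:46188422-46188451, minus strand: catctgaaagttatagggCACTGCCActgc
All 5 lie in the last exon of their transcript. The sites of SLC7A6 and SLC38A1 match 8 bases, and those of SLC1A4, SLC7A1 and SLC43A2 match 7. SLC7A2 also holds an 8-base match, and SLC7A5, SLC3A2, SLC1A3, SLC1A5, SLC38A2 and SLC38A9 hold none in the 3' UTR searched. The 5 genes shown all had a log2 ratio below 0 with the mimic in H1299, as did SLC7A2 and SLC7A6OS, which holds a match too. Matches also lie in SLC6A6, SLC36A1, SLC38A10 and SLC38A7, whose ratios there were above 0, at 0.41, 0.36, 0.21 and 0.09. The last gene with a match, SLC6A17, had too few reads in H1299 to be compared. A match of letters is a description and not a shown binding site.

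Expression of the families was uneven. Of the 59 genes, 26 reached 50 counts in at least 1 library, 10 had at most 11 counts in any library, and 23 were listed at 0 in all 4 libraries. The genes at 0 included all 3 monoamine carriers of the SLC6 family, SLC6A2, SLC6A3 and SLC6A4, which serve neurons, the brain glutamate carrier SLC1A2, the kidney and gut carrier SLC6A19 and the leucine exchanger SLC7A8. A count of 0 allows up to 0.0840 to 0.111 CPM at these depths, counting error only. SLC3A1, the heavy chain of the kidney cystine exchanger, had 0, 4, 2 and 5 counts, and SLC7A9, its light chain, had 0, 0, 4 and 6. The other genes with few reads were SLC6A12, SLC6A13, SLC6A14, SLC7A7, SLC7A10, SLC7A13, SLC38A5 and SLC43A3.

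By level per transcript length (FPKM, fragments scaled by transcript length and library depth), SLC38A2 and SLC38A1 stood highest. Together they held 58.5%, 64.1%, 58.7% and 60.0% of the summed FPKM of the 58 transporters, which was 490, 481, 535 and 578. With SLC3A2, SLC7A5 and SLC1A5, the leading 5 genes held 84.5% to 87.4% of it. The leading genes were thus the sodium-coupled carriers of small neutral amino acids, the CD98 heavy chain with its leucine-carrying light chain, and the glutamine carrier SLC1A5. The lowest of the 26 by mean FPKM was SLC6A17, a carrier best known from neurons, at 0.131, 0.0433, 0.401 and 0.206 FPKM.

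**Figure D1:**
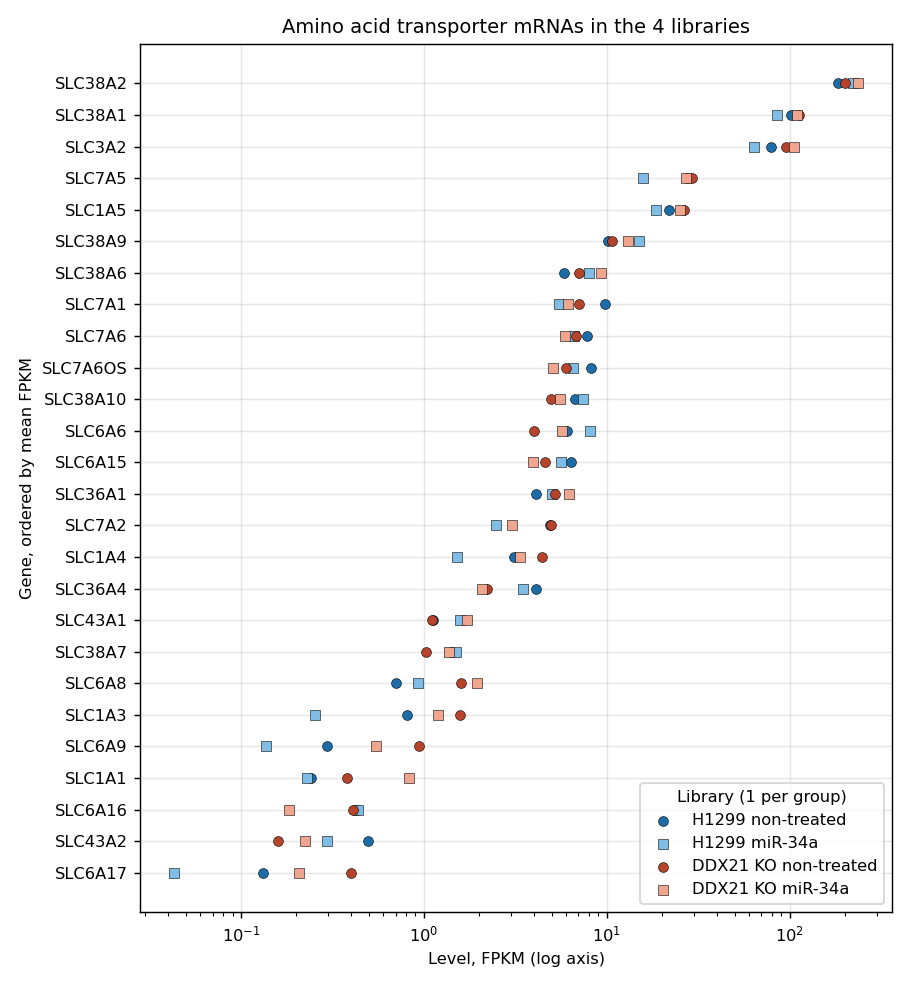
Level in FPKM (log axis) of the 26 genes with at least 50 counts in 1 library or more, ordered by their mean, with 1 point per library (circles non-treated, squares miR-34a; blue H1299, red DDX21 KO). SLC38A2 and SLC38A1 lie at the top in every library, and the libraries spread most among the low genes, such as SLC6A17, SLC6A9 and SLC1A3.

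A gene entered a comparison with at least 50 counts in at least 1 of the libraries compared, and was called higher or lower when its log2 ratio was at least 2-fold and the 95% counting interval excluded no change. In H1299, miR-34a gave 2 lower calls among 23 entering transporter-named genes, SLC1A3 and SLC1A4, where 4.27% of all 13597 genes entering were called lower. SLC1A3 reached the minimum in the non-treated library alone, where it is high. None was called higher, where 3.61% of all genes were. At a limit of 1.5-fold, 6 of the 23 genes were lower, SLC1A3 and SLC1A4 with SLC43A2, SLC7A1, SLC7A2 and SLC7A5, where 12.9% of all genes were, and SLC38A9 alone was higher, where 10.6% of all genes were. The median log2 ratio of the 23 genes was -0.17, and that of all genes 0.00.

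In DDX21 KO cells, miR-34a gave no call at 2-fold among 25 entering genes, where 1.63% of all 13382 genes were higher and 1.69% lower. At 1.5-fold, SLC1A1 and SLC43A1 were higher, where 5.96% of all genes were, and SLC6A9, SLC6A17 and SLC7A2 were lower, where 6.81% were. The median log2 ratio was -0.07, and that of all genes 0.00. The pairs of libraries behind the miR-34a ratios of the 2 lines share no library. Over the 22 genes that entered both, Pearson's r was 0.78 and Spearman's rho 0.73, a description over genes, which are not replicates. The ratios lay below 0 in both lines for 11 genes, above 0 in both for 9, and below 0 in H1299 and above 0 in DDX21 KO for the other two, SLC3A2 and SLC43A2. The ratio was closer to 0 in DDX21 KO cells for 18 of the 22, 81.8%, and for 66.8% of all 13015 genes that entered both. Over all those genes Pearson's r was 0.65 and Spearman's rho 0.68, and 75.8% had the same sign in both lines.

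**Figure D2:**
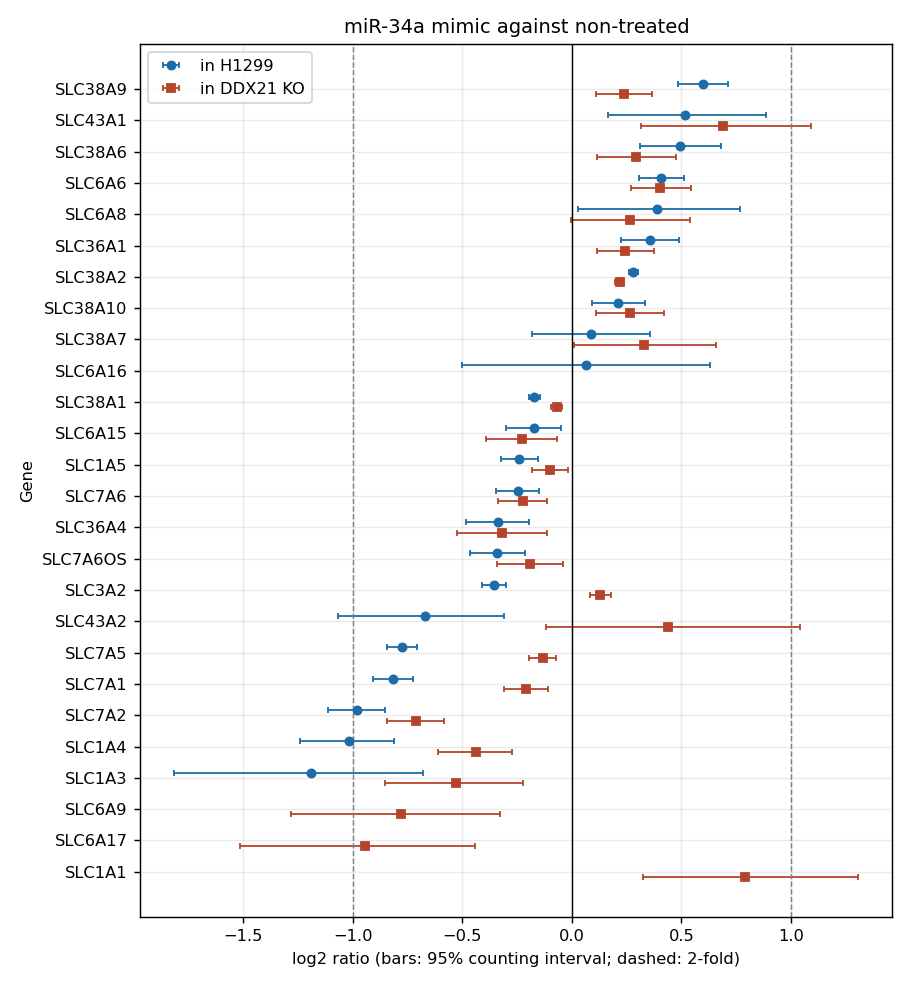
Log2 ratio of miR-34a over non-treated cells for each gene entering at least 1 of the comparisons, in H1299 (blue circles) and DDX21 KO (red squares), ordered by the H1299 ratio, with 95% counting intervals and dashed lines at 2-fold. SLC7A5, SLC7A1, SLC7A2, SLC1A4 and SLC1A3 lie farthest below 0 in H1299, and for SLC7A5 and SLC7A1 the DDX21 KO ratio lies close to 0, at -0.13 and -0.21.

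Between the lines, in non-treated cells 4 of 26 entering genes were higher in DDX21 KO, SLC1A3, SLC6A8, SLC6A9 and SLC6A17, where 3.8% of all 13600 genes were, and SLC43A2 was lower, where 2.76% were. In miR-34a cells 5 of 25 genes were higher, SLC1A1, SLC1A3, SLC1A4, SLC6A8 and SLC6A9, where 3.99% of all 13621 genes were, and SLC6A16 was lower, where 2.96% were. SLC6A9 and SLC6A17 in non-treated cells, and SLC1A1, SLC1A3 and SLC6A9 in miR-34a cells, reached the minimum in DDX21 KO alone, as SLC43A2 and SLC6A16 did in H1299 alone, so these genes could enter only through the library where they are high. The medians were 0.11 and 0.16, against -0.02 and -0.01 over all genes. At 1.5-fold the non-treated comparison added SLC1A1 as higher, for 5 genes where 9.18% of all genes were. With 37 counts in H1299 and 53 in DDX21 KO, SLC1A1 too entered it only through the library where it is high. SLC36A4 and SLC6A6 were added as lower, for 3 genes where 9.86% of all genes were. The miR-34a comparison added SLC3A2 and SLC7A5 as higher, for 7 genes where 9.85% were, and the same SLC36A4 and SLC6A6 as lower, for 3 genes where 9.86% were.

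**Figure D3:**
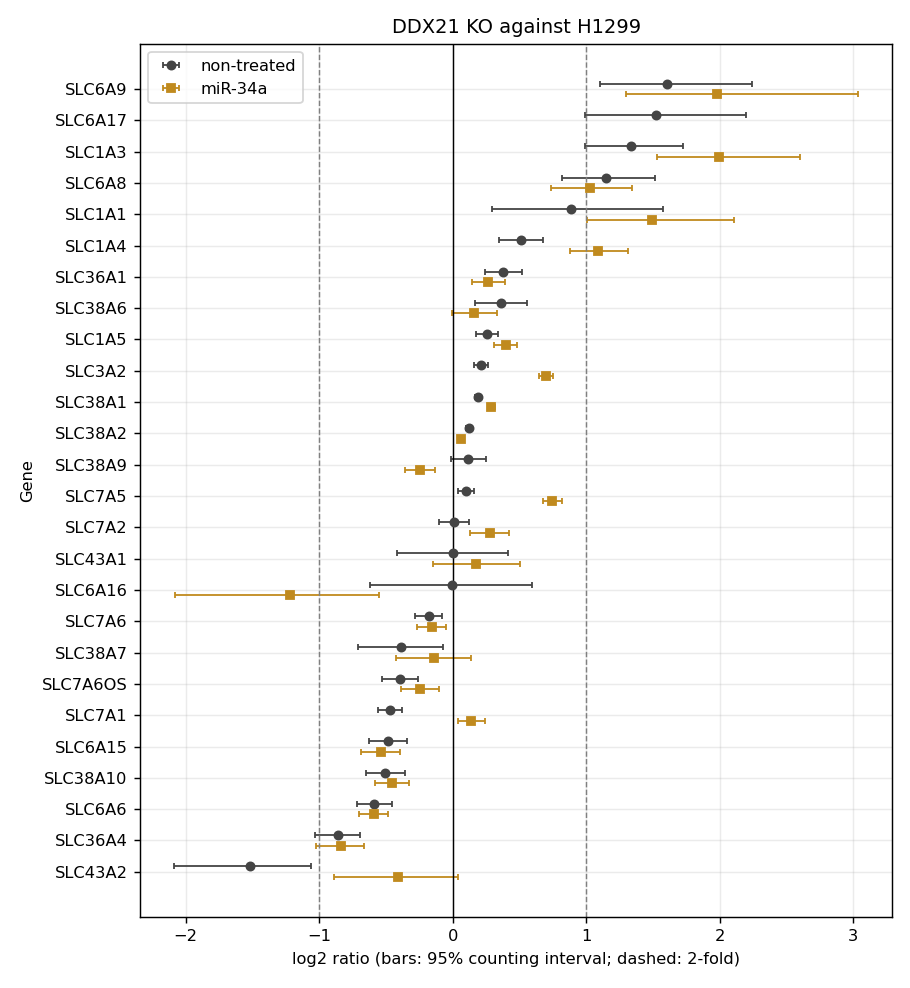
Log2 ratio of DDX21 KO over H1299 for the 26 genes, in non-treated (grey circles) and miR-34a cells (ochre squares), ordered by the non-treated ratio, with 95% counting intervals and dashed lines at 2-fold. SLC6A9, SLC6A17, SLC1A3 and SLC6A8 lie above 2-fold in non-treated cells, SLC43A2 lies below, and for SLC3A2, SLC7A5 and SLC1A4 the miR-34a ratio lies above the non-treated one.

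The difference between the miR-34a ratios of the lines, DDX21 KO minus H1299, was past 2-fold for SLC43A2 upwards and SLC6A16 downwards, 1 of 26 genes each way, where 2.11% and 2.07% of all 13964 genes were. At 1.5-fold SLC1A3, SLC7A5 and SLC7A1 joined SLC43A2, for 4 genes where 5.7% of all genes were, and SLC6A16 stayed the 1 gene below, where 5.26% were. The difference lay above 0 for 18 of the 26 genes, with a median of 0.14, against -0.01 for all genes. The 4 comparisons and this difference are made from the same 4 libraries and are not separate evidence.

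**Figure D4:**
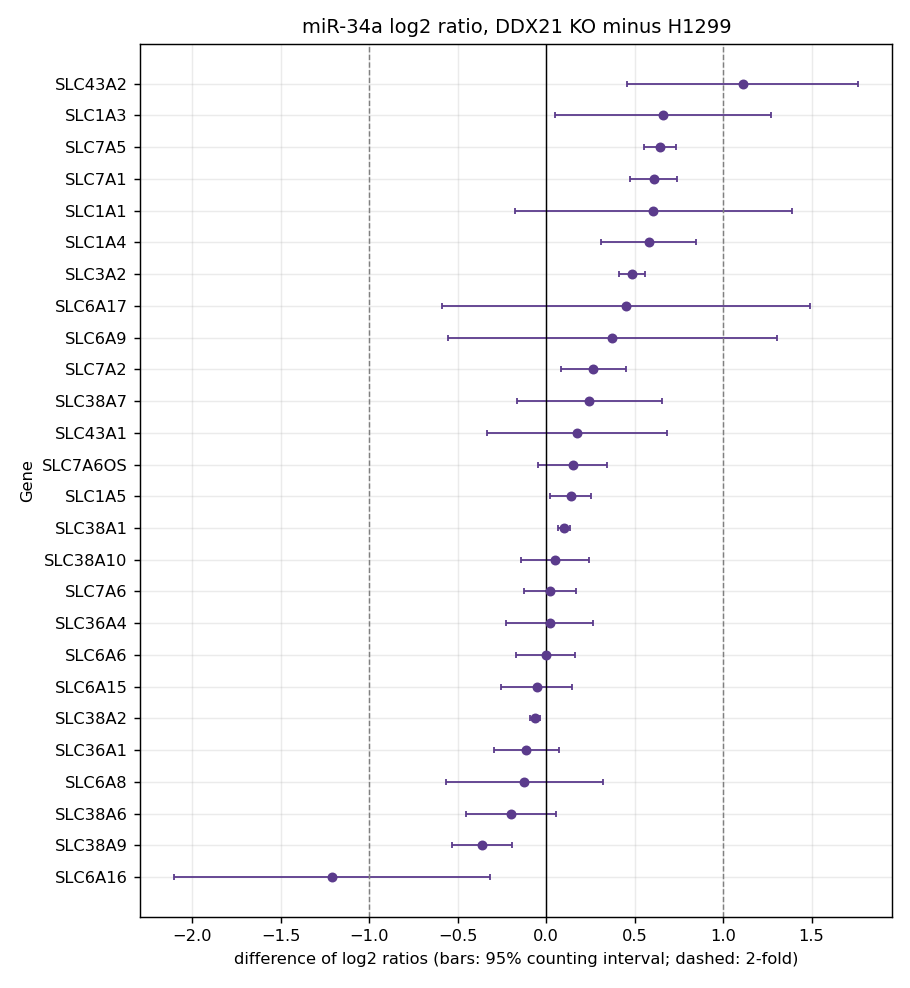
Difference of the miR-34a log2 ratios, DDX21 KO minus H1299, for the 26 genes, with 95% counting intervals from the 4 counts and dashed lines at 2-fold. SLC43A2 and SLC6A16 lie outside the dashed lines at 1.11 and -1.21, and SLC7A5, SLC7A1, SLC1A4 and SLC3A2 lie between 0.48 and 0.64 with intervals above 0.

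Both genes called lower with the mimic in H1299 belong to the SLC1 family. SLC1A4, an exchanger of alanine, serine, cysteine and threonine (gene ID 6509, chr2:64988479-65023865), stood at 16.1, 7.91, 22.9 and 16.9 CPM. The miR-34a H1299 library was the lowest and the non-treated DDX21 KO library the highest. With the mimic the log2 ratio was -1.02 (-1.24 to -0.81) for H1299 and -0.44 (-0.61 to -0.27) for DDX21 KO, and their difference was 0.58 (0.31 to 0.85). Between the lines the log2 ratio was 0.51 (0.35 to 0.68) non-treated and 1.09 (0.88 to 1.31) with miR-34a. Its H1299 call sat at the 2-fold limit and was lost on the FPKM scale at -0.986. A long non-coding RNA, LOC107984063, spans the same locus with 46, 40, 19 and 29 counts.

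SLC1A3, a glutamate and aspartate carrier best known from astrocytes (gene ID 6507, chr5:36606355-36688334), had 97, 38, 187 and 157 counts. Both DDX21 KO libraries were above both H1299 libraries, and miR-34a H1299 was the lowest. In H1299 the mimic ratio was -1.19 (-1.81 to -0.68), and in DDX21 KO -0.53 (-0.85 to -0.22). The DDX21 KO ratio was 1.33 (0.99 to 1.72) in non-treated and 1.99 (1.53 to 2.60) in miR-34a cells, the latter being the highest log2 ratio among the 25 genes that entered, with SLC6A9 next at 1.98. On the FPKM scale, where it stood at 0.812, 0.255, 1.58 and 1.19, the non-treated ratio was 0.88 with a pseudocount of 0.1, and that call was lost. In the authors' deposited table it is listed between the lines in miR-34a cells with a fold change of 4.22, a raw p-value of 0.0231 and an adjusted p-value of 1.

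SLC1A1, a carrier of glutamate, aspartate and cysteine, had 37, 39, 53 and 113 counts, with the miR-34a DDX21 KO library alone clearly high. It entered 3 of the 4 comparisons, and its ratio between the lines in miR-34a cells was 1.49 (1.00 to 2.10). The gene SPATA6L overlaps it over 46827 bases, so its reads are uncertain. SLC1A5, the sodium-dependent glutamine and neutral amino acid exchanger, stood at 71.6, 60.7, 85.6 and 79.8 CPM, about as high in all 4 libraries, with no ratio beyond the 0.40 between the lines in miR-34a cells. SLC1A2, SLC1A6 and SLC1A7 were at 0.

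The heavy chain SLC3A2 (gene ID 6520, chr11:62856109-62888860), also called CD98, carries no amino acid itself and brings its SLC7 partners to the cell surface. It stood at 182, 142, 210 and 230 CPM, lowest in miR-34a H1299 and highest in miR-34a DDX21 KO. Its mimic ratio was -0.35 (-0.41 to -0.30) for H1299 and 0.13 (0.08 to 0.18) for DDX21 KO, so that the counting intervals lay on opposite sides of 0. The difference was 0.48 (0.41 to 0.56), and the ratio between the lines was 0.21 (0.16 to 0.26) non-treated and 0.70 (0.64 to 0.75) with miR-34a.

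SLC7A5, the leucine-carrying partner of SLC3A2 known as LAT1 (gene ID 8140, chr16:87830022-87869507), stood at 139, 80.9, 149 and 136 CPM. The miR-34a H1299 library was low and the other three lay close together. The mimic ratio was -0.78 (-0.85 to -0.71) for H1299 and -0.13 (-0.19 to -0.07) for DDX21 KO, with a difference of 0.64 (0.55 to 0.74). Nearly all reads were assigned to transcript NM_003486, at 4709, 2636, 3983 and 4396 counts, of which miR-34a H1299 had the fewest. The near-identical copy SLC7A5P2 had 314, 197, 189 and 236 counts, and SLC7A5P1 at most 5, so a part of the reads could be split between them.

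SLC7A6, which exchanges cationic for neutral amino acids, had 54.7, 46.1, 48.3 and 41.3 CPM, and its mimic ratios of -0.25 and -0.22 were close in both lines. Its 8-base seed match is printed above. It overlaps SLC7A6OS over 3786 bases (chr16:68298034-68301819). No source used here says whether the counting used strand, so reads of this pair are uncertain. SLC7A6OS itself had 34.3, 27.1, 26.1 and 22.8 CPM, likewise highest in non-treated H1299. SLC7A11, the cystine-glutamate exchanger that also pairs with SLC3A2 and was left out by the rule, stood at 114, 113, 89.9 and 113 CPM. The FPKM of SLC3A2 over the summed FPKM of SLC7A5, SLC7A6 and SLC7A11 was 1.74, 1.95, 2.17 and 2.43, and over SLC7A5 alone 2.91, 4.06, 3.29 and 3.92. Heavy chain message thus exceeded light chain message in every library, and its ratio to SLC7A5 was higher in each mimic library than in the non-treated library of that line.

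The cationic carriers SLC7A1 and SLC7A2 were both lower by 1.5-fold with the mimic in H1299. SLC7A1, the widely expressed arginine and lysine carrier (gene ID 6541, chr13:29509410-29595688), stood at 81.0, 46.0, 58.5 and 50.6 CPM. Non-treated H1299 was alone high. For SLC7A1 the mimic ratio was -0.82 (-0.91 to -0.73) for H1299 and -0.21 (-0.31 to -0.11) for DDX21 KO, with a difference of 0.61 (0.47 to 0.74). Between the lines the ratio was -0.47 (-0.56 to -0.38) in non-treated and 0.14 (0.04 to 0.24) in miR-34a cells.

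SLC7A2, a further arginine carrier (gene ID 6542), stood at 42.2, 21.3, 42.4 and 25.9 CPM. Both mimic libraries were below both non-treated libraries. The mimic ratio was -0.98 (-1.11 to -0.85) in H1299, just short of 2-fold, and -0.71 (-0.84 to -0.58) in DDX21 KO, the difference being 0.27 (0.08 to 0.45). The lines did not differ beyond counting error in non-treated cells, at 0.01 (-0.10 to 0.12). SLC7A3, SLC7A4 and SLC7A14 were at 0.

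The sodium-coupled SLC38 carriers, the highest group, had no call at 2-fold. SLC38A2, the glutamine and alanine carrier known to rise when amino acids are short (gene ID 54407, chr12:46358188-46372774), stood at 1003, 1219, 1091 and 1269 CPM. It was higher in each mimic library, by 0.28 (0.26 to 0.30) for H1299 and 0.22 (0.20 to 0.24) for DDX21 KO. SLC38A1, its relative on the same chromosome (gene ID 81539), stood at 834, 741, 950 and 906 CPM and was lower in each mimic library, by ratios of -0.17 (-0.19 to -0.15) and -0.07 (-0.09 to -0.04). The intervals of these well-covered genes are narrow, and the spread between cultures was not measured.

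SLC38A9, the lysosomal arginine sensor upstream of mTORC1, stood at 29.6, 44.8, 32.0 and 37.8 CPM. Both mimic libraries were above the non-treated ones, with a ratio of 0.60 (0.48 to 0.71) for H1299 and of 0.24 (0.11 to 0.36) for DDX21 KO. Its reads were spread over 28 transcripts. SLC38A6, a less well characterised relative, had 12.1, 17.1, 15.6 and 19.1 CPM, and its ratios were 0.49 and 0.29. It overlaps TRMT5 over 577 bases. SLC38A10, also less well characterised, had 31.0, 35.9, 21.8 and 26.2 CPM, with both DDX21 KO libraries below both H1299 libraries and ratios of -0.50 (-0.65 to -0.36) non-treated and -0.45 (-0.58 to -0.32) with miR-34a. SLC38A7, a lysosomal glutamine carrier, was low at 4.94 to 6.87 CPM.

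The ratios of the proton-coupled SLC36 carriers between the lines had opposite signs, with no call at 2-fold. SLC36A1, a lysosomal carrier of small amino acids, stood at 4.12, 5.02, 5.22 and 6.20 FPKM, lowest in non-treated H1299, with ratios between the lines of 0.38 (0.24 to 0.52) and 0.27 (0.14 to 0.39). SLC36A4, a carrier of proline and tryptophan, had 27.0, 21.3, 14.9 and 11.9 CPM, with both DDX21 KO libraries below both H1299 libraries. Its ratio between the lines was -0.86 (-1.03 to -0.69) non-treated and -0.84 (-1.02 to -0.66) with miR-34a. SLC36A2 and SLC36A3 were at 0.

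Of the facilitative SLC43 carriers of large neutral amino acids, SLC43A2 (gene ID 124935, chr17:1569254-1630014) had 164, 94, 42 and 70 counts. Non-treated H1299 was the highest and non-treated DDX21 KO the lowest. The ratio between the lines was -1.52 (-2.08 to -1.06) non-treated and -0.41 (-0.89 to 0.04) with miR-34a. The mimic ratio was -0.67 (-1.07 to -0.31) for H1299 and 0.44 (-0.12 to 1.04) for DDX21 KO, so the difference of 1.11 (0.46 to 1.76) joins a lower value in one line with an interval across 0 in the other. On the FPKM scale with a pseudocount of 0.1 the difference was 0.90, short of 2-fold. The authors' transcript estimates gave 144, 0, 0 and 0 counts to NM_152346 and 4, 84, 42 and 70 to NM_001284498. SLC43A1 had 114, 151, 86 and 170 counts, higher in each mimic library, with ratios of 0.52 (0.16 to 0.89) and 0.69 (0.32 to 1.09).

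Among the SLC6 carriers of taurine and creatine, SLC6A6, the taurine carrier, stood at 39.8, 52.9, 26.5 and 35.1 CPM. The mimic ratio was 0.41 in H1299 and 0.40 in DDX21 KO, and the ratio between the lines -0.59 in both treatments, so that the difference was 0.00 (-0.17 to 0.17). It holds 2 seed matches. SLC6A8, the creatine carrier (gene ID 6535, chrX:153687926-153696593), had 113, 137, 191 and 280 counts. Both DDX21 KO libraries were above both H1299 libraries, with ratios of 1.15 (0.82 to 1.51) non-treated and 1.03 (0.74 to 1.34) with miR-34a. The pseudogene SLC6A10P is a near-identical copy of SLC6A8 and had 14, 13, 101 and 109 counts, with the same libraries high. The part of shared reads in the SLC6A8 counts was not tested.

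Of the SLC6 carriers of glycine and neutral amino acids, SLC6A9, the glycine carrier (gene ID 6536, chr1:43996483-44031462), had 39, 15, 93 and 65 counts. SLC6A17, a vesicular carrier of neutral amino acids best known from neurons (gene ID 388662, chr1:110150494-110202202), had 35, 11, 79 and 49. In each gene both DDX21 KO libraries were above both H1299 libraries, and each mimic library was below the non-treated library of its line. The ratio between the lines in non-treated cells was 1.61 (1.11 to 2.24) for SLC6A9 and 1.52 (0.99 to 2.20) for SLC6A17, and the mimic ratio in DDX21 KO was -0.78 (-1.28 to -0.33) and -0.94 (-1.52 to -0.44). Both had under 50 counts in both H1299 libraries and did not enter that comparison. Between the miR-34a libraries SLC6A9 was called higher in DDX21 KO at 1.98 (1.29 to 3.04), and SLC6A17, with 49 counts, did not enter. With the mimic in DDX21 KO it entered through the non-treated library alone.

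In the authors' deposited table SLC6A9 and SLC6A17 are listed between the lines in miR-34a cells at fold changes of 4.41 and 4.52, above that of SLC1A3, with raw p-values of 0.0280 and 0.0304 and adjusted p-values of 1. With SLC1A3 they are the 3 transporters among the 908 genes of that table. SLC6A16, an orphan member of the family, had 56, 54, 42 and 22 counts, with the miR-34a DDX21 KO library alone low. Its ratio between the lines was -0.01 (-0.62 to 0.59) non-treated and -1.22 (-2.08 to -0.55) with miR-34a, which was lost on the FPKM scale at -0.92. SLC6A15, a carrier of branched-chain amino acids and proline, had 32.3, 28.6, 23.1 and 19.7 CPM, lower in both DDX21 KO libraries by -0.48 (-0.63 to -0.34) and -0.54 (-0.69 to -0.39).

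Seed matches were more frequent among the transporter-named genes than in all genes, and so was long UTR sequence. SLC7A6OS, which holds a match and is not a transporter, is counted among the transporter-named genes here. In the H1299 mimic comparison 11 of 23 entering transporter-named genes, 47.8%, held a match, and 23.5% of all 11648 protein-coding genes with a 3' UTR did. The median 3' UTR was 2900 bases long in the former and 1419 in the latter, and the density was 0.184 and 0.151 matches per 1000 bases. The median mimic log2 ratio in H1299 was -0.25 with and -0.06 without a match among transporter-named genes, and -0.10 and 0.06 among all genes. In DDX21 KO it was -0.13 and 0.13 among transporter-named genes, and -0.08 and 0.03 among all genes. Of the 6 genes lower by 1.5-fold in H1299, SLC1A4, SLC7A1, SLC7A2 and SLC43A2 held a match, and SLC1A3 and SLC7A5 held none in the sequence searched.

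Promoters were searched for TGATGNAA, the core of the C/EBP-ATF response element, on both strands of the 300 bases from 250 before to 50 after each start in RefSeq (GRCh38.p14). A promoter was given for 45 of the 59 genes, and 6 of their 67 promoters held the motif, 8.96%, where 3.62% of all 35116 promoters did. All 6 belong to genes with enough reads to be compared, SLC1A3, SLC1A4, SLC1A5, SLC3A2, SLC7A1 and SLC38A1, which are 26.1% of the 23 such genes with a promoter, where 2.70% of all genes entering hold it. They are shown over 30 bases with the motif in capitals, as the full set of matches among the transporters. The mimic ratios of these genes differed between the lines by 0.66, 0.58, 0.14, 0.48, 0.61 and 0.10, in the order printed. Over all 26 genes compared, 18 differences lay above 0 and 8 below, with a median of 0.14. The highest, 1.11, was that of SLC43A2, which is not among the 6. A link between motif and difference was not tested.
SLC1A3, chr5:36596357-36596386, plus strand: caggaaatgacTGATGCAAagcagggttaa
SLC1A4, chr2:64989381-64989410, plus strand: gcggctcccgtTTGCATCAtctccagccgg
SLC1A5, chr19:46784893-46784922, minus strand: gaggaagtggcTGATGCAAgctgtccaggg
SLC3A2, chr11:62881719-62881748, plus strand: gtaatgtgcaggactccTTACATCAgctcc
SLC7A1, chr13:29595663-29595692, minus strand: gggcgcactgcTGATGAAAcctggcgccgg
SLC38A1, chr12:46266502-46266531, minus strand: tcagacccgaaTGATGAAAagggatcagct
In SLC1A4 and SLC3A2 the motif reads on the opposite strand. The first base of the motif lies at -220, -7, -97, 37, 7 and -4 from the start, in the same order. The SLC1A3 promoter ends 9717 bases upstream of the first transcript in the authors' table, so none of the transcripts counted starts at it. Those of SLC1A4, SLC1A5, SLC3A2 and SLC38A1 lie inside the span of the gene's transcripts, past its 5' end. Whether counted transcripts start at these promoters was not read. No factor was measured at these promoters, and SLC7A5, with a difference of 0.64, holds no match in this window.

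The other genes of amino acid supply were read from 4 lists of 96 genes. The starvation response through GCN2 and ATF4 is given first. ATF4 itself stood at 266, 167, 303 and 286 CPM, low in miR-34a H1299 alone, with a mimic ratio of -0.67 (-0.72 to -0.63) for H1299 and -0.08 (-0.12 to -0.04) for DDX21 KO and a difference of 0.59 (0.53 to 0.66). In SLC7A5 too miR-34a H1299 was alone low, and a part of ATF4 in this was not tested. DDIT3, a stress transcription factor, stood at 27.4, 56.4, 30.2 and 80.3 CPM and was called higher with the mimic in both lines, at 1.04 (0.93 to 1.15) and 1.41 (1.30 to 1.53). ATF3 at 1.29 and PPP1R15A at 1.33, which resets translation after stress, were also called higher in DDX21 KO. In H1299 their mimic ratios were 0.90 (0.70 to 1.10) and 0.89 (0.76 to 1.01), above 0 as well and short of 2-fold.

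In H1299 the mimic gave 1 higher and 0 lower calls among 14 entering starvation genes, where 3.61% and 4.27% of all genes were called. In DDX21 KO it gave 3 higher and 0 lower among 15, where 1.63% and 1.69% of all genes were. Between the lines NUPR1, a stress-induced nuclear protein, was the 1 call of 15 in each treatment, with 0, 6, 70 and 68 counts, higher where 3.8% of all genes were in non-treated and 3.99% in miR-34a cells. It reached the minimum in DDX21 KO alone. Its ratio with miR-34a was 3.13, with a lower counting bound of 2.31. The difference between the mimic ratios was called higher for CHAC1, a glutathione-degrading enzyme, at 1.05 (0.70 to 1.40), where 2.11% of all genes were. It was called lower for NUPR1 at -2.29 (-4.48 to -0.10), where 2.07% were. That NUPR1 call takes its H1299 ratio from 0 and 6 counts, a comparison the gene did not enter. In DDX21 KO the mimic ratio of NUPR1 was -0.32 (-0.83 to 0.18). The list's median log2 ratio was 0.04 with the mimic in H1299 and 0.11 in DDX21 KO, where that of all genes was 0.00. Between the lines it was 0.15 non-treated and 0.57 with miR-34a, against -0.02 and -0.01 for all genes.

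The amino acid synthesis list had 23 entering genes. PHGDH, the first enzyme of serine synthesis, stood at 59.3, 21.8, 49.6 and 29.9 CPM and was the 1 call of the list with the mimic in H1299, at -1.44 (-1.57 to -1.32), a share near the 4.27% of all genes called lower. In DDX21 KO its ratio was -0.73 (-0.85 to -0.61), and the list had no call there, where 1.63% of all genes were higher and 1.69% lower. Between the non-treated lines ASS1, which makes arginine precursors, was called higher at 1.98 (1.46 to 2.67), where 3.8% of all genes were. In that comparison it reached the minimum in DDX21 KO alone. CTH, which makes cysteine, was called lower at -1.06 (-1.41 to -0.74), where 2.76% of all genes were. The list had no call between the miR-34a libraries, where 3.99% of all genes were higher and 2.96% lower. The difference of the mimic ratios was called for ASS1 alone, at -1.19 (-1.91 to -0.47), where 2.11% of all genes were higher and 2.07% lower. The list's medians were -0.08 and -0.14 with the mimic in H1299 and DDX21 KO, and -0.09 and -0.04 between the lines without and with it.

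The mTORC1 amino acid sensing list, 36 genes, had 1 higher call with the mimic in H1299, where 3.61% of all genes were higher, and none in DDX21 KO, where 1.63% were higher and 1.69% lower. CASTOR1, a cytosolic arginine sensor, had 13, 52, 46 and 73 counts, with non-treated H1299 alone low, and a mimic ratio of 1.95 (1.22 to 3.12) in H1299, where it reached the minimum in the mimic library alone. Its difference of -1.58 (-2.55 to -0.60) was the 1 call of the list there, where 2.11% of all genes were higher and 2.07% lower. SESN3, one of the leucine-sensing sestrins, was called higher in non-treated DDX21 KO at 1.33 (1.03 to 1.67), the 1 call of 35 entering genes, where 3.8% of all genes were higher, and the miR-34a libraries gave none. In the same order of comparisons the medians of this list were 0.07, -0.04, 0.09 and 0.03. Other amino acid carriers, 13 entering of 20, had no call in any comparison. Over all genes 1.63% to 4.27% were called per direction in the 4 comparisons, and 2.11% and 2.07% for the difference. At such shares the absence of calls among 13 genes says little. The medians of these carriers were 0.10, 0.13, 0.02 and 0.04. Their extremes with the mimic in H1299 were SLC25A44 at -0.37 and SLC25A13 at -0.34, both mitochondrial carriers, and MFSD12 and SLC15A4 at 0.70, both of lysosome-related membranes.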

How the data were processed

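Per the labels' protocols, ribosomal RNA was removed from the total RNA of the 4 samples before stranded library preparation. Bowtie2 2.0.6, TopHat2 2.0.9 and build GRCh38 are named in the submitters' processing notes. The counting tool, its use of strand and whether a read pair counts as 1: not given in the sources used here. Counting intervals may therefore be too narrow. Per the file headers, the authors deposited an estimated count per gene and transcript, as whole numbers, and FPKM. Their comparison table, also deposited by the authors, holds a signed fold change (a score with no values between -1 and 1) and raw and adjusted p-values, from a test that is not named. Gene coordinates are the span of a gene's transcripts in the authors' transcript table.

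Gene counts were used as deposited. Library sizes were scaled by TMM (edgeR 4.0.16, R 4.3.3), with factors of 0.985, 0.997, 1.00 and 1.02. Log2 ratios used a prior count of 2, with 95% exact Clopper-Pearson intervals from the split of the reads, and from Poisson variances of 4 counts for the difference of ratios. No test was run and no p-value computed, since groups hold 1 library each, and the intervals cover counting error alone. The floor for a count of 0 was 3 counts. The code was tested on simulated counts. The genes, lists and settings were chosen with earlier results of these data known. Named genes were those called in any comparison, the highest by mean FPKM, SLC3A2, SLC3A1 and SLC7A5, the called genes of each pathway list or else its extremes, near-identical copies, and further genes of each family by range. Alternatives were DESeq2 1.42.0 size factors, library totals, count minimums of 1, 10 and 200, a prior count of 0.5, FPKM with pseudocounts of 0.1 and 1, a 1.5-fold limit and, added after the data were seen, leaving out SLC7A6OS. A further marker of the line is not reported here.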

Additional observations from a re-analysis of the deposited data

Results flagged for a closer look

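SLC3A2 had mimic log2 ratios of opposite sign in the 2 lines, -0.35 in H1299 and 0.13 in DDX21 KO, a difference of 0.48 that rests on 1 library per group and was not tested against replicates. The difference of the mimic ratios passed 2-fold for SLC43A2 at 1.11 and for SLC6A16 at -1.21, by counting intervals only, both on fewer than 200 counts per library. SLC6A10P, a pseudogene copy of SLC6A8 outside the transporter genes described, had a log2 ratio of 3.07 (2.44 to 4.18) between DDX21 KO and H1299 in non-treated cells and 2.89 (2.24 to 4.03) in miR-34a cells, and the authors' deposited table lists it between the non-treated lines at a fold change of 9.45 with a raw p-value of 0.00103 and an adjusted p-value of 0.326.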

How the results depend on the processing

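DESeq2 size factors, library totals and a prior count of 0.5 changed no call, and no setting turned the direction of a called gene or moved the median of all genes by 0.1. The number of genes called depended on the count minimum, the fold limit and the FPKM scale. With the mimic in H1299 the 2 lower calls became 5 at a minimum of 10 or 1, 1 at 200, 1 and 0 on FPKM with pseudocounts of 0.1 and 1, and 6 at 1.5-fold, and the 0 higher calls became 2 at a minimum of 1 and 1 at 1.5-fold. In DDX21 KO the 0 higher calls became 1 at a minimum of 10 and 2 at 1 or at 1.5-fold, the 0 lower calls 1 at 10 or 1 and 3 at 1.5-fold, and the median of -0.07 became 0.17 at a minimum of 1, -0.0356 and -0.0354 on FPKM with pseudocounts of 0.1 and 1, and 0.0309 without SLC7A6OS. Between the non-treated lines the 4 higher calls became 0 at a minimum of 200 or on FPKM with a pseudocount of 1. At 1.5-fold they became 5, and on FPKM with a pseudocount of 0.1 SLC1A3 was lost from them, at 0.88. The 1 lower call became 0 at a minimum of 200 and on FPKM with a pseudocount of 1, and 3 at 1.5-fold. Between the miR-34a lines the 5 higher calls became 2 at 200, 8 at 1 and 7 at 1.5-fold. On FPKM with a pseudocount of 1 they became 0. The 1 lower call became 0 at 200 and on both FPKM scales, 2 at 1 and 3 at 1.5-fold. Smaller shifts in the number of calls are not all given. The difference of ratios lost its 1 higher and 1 lower call, to 0, at 200 and on both FPKM scales, and had 4 higher calls at 1.5-fold. Fewer genes enter at higher minimums, and a pseudocount of 1 exceeds the FPKM of most called genes. The 968 values of single genes under the alternatives include genes and comparisons that had no call, so they do not measure how stable the calls were. A call was lost in 5 values on FPKM with a pseudocount of 0.1. With a pseudocount of 1 it was lost in 15, and no call was left. Genes that no longer entered at a minimum of 200 are not among these values, and the calls lost there are those given above. No paired analysis was possible because each group is 1 library. Depth limits the genes under 200 counts, and the spread between cultures was not measured.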
